A study of Helianthus annuus with 12 samples.

Results

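The gene described here is gene1045, which the deposited annotation names MPBQ/MSBQ methyltransferase 1 of Helianthus annuus. It was chosen by that description, and it is 1 of the 48882 genes with expression values. Its best protein match was identical over 339 of 339 aligned positions. RNA was sequenced from sunflower seeds of cultivar 86-1 and cultivar L-1-OL-1, which the series describes as differing in oleic acid content; the labels do not say which of them is the high one. Seeds were taken at 27 and 17 days after flowering (DAF). Oleic acid accumulated fast at the earlier stage and was nearly stable at the later one, per the labels. The groups were 86-1 and L-1-OL-1 seeds of 27 DAF, and 86-1 and L-1-OL-1 seeds of 17 DAF, with 3 libraries each and 12 in all, and no treatment or transgene is named.

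Tocopherols, the vitamin E compounds, are antioxidants that plastids make and that oilseeds store with their oil. Homogentisate, made from the tyrosine pathway, is joined to a phytyl chain to give MPBQ, a methylated phytyl benzoquinol. MPBQ/MSBQ methyltransferase adds a further methyl group to it, on the route to gamma- and alpha-tocopherol, while unmethylated MPBQ leads to delta- and beta-tocopherol. The same enzyme methylates MSBQ, the solanesyl counterpart, in the last step to plastoquinone, an electron carrier of plastids.

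Expression was given as FPKM, read fragments scaled by gene length and by library size, which allows levels of different genes to be set side by side. The FPKM values of a library summed to between 605655 and 683903. Read totals were not available, so no counting interval is given. Relative to 86-1 17 DAF replicate 1, library depth was 0.793 to 1.21, as read from the steps between low values. One library stood apart from its group in its correlations. L-1-OL-1 17 DAF replicate 1 correlated with the other libraries of its group at r = 0.861 and 0.784, whereas those 2 correlated at 0.944, and it correlated with the 3 libraries of 86-1 at 17 DAF at 0.833 to 0.860. Calls of single genes that involve L-1-OL-1 at 17 DAF are given with and without it. Values against that library alone were chosen after it had been seen to stand apart, and they are given as descriptions. Where alternative analyses are tallied, that fit is among them. Nothing in the labels says that libraries came from separate plants, so p-values measure the spread between libraries, which may be technical. Whole seeds hold several tissues, and fewer cells of a type cannot be told apart from less RNA per cell.

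gene1045 was highest in 86-1 seeds at 17 DAF and much lower in both cultivars at 27 DAF. At 27 DAF it had 17.7, 22.1 and 21.3 FPKM in 86-1 and 13.3, 17.0 and 16.9 FPKM in L-1-OL-1. At 17 DAF it had 59.7, 67.1 and 58.3 FPKM in 86-1 and 46.4, 17.6 and 16.5 FPKM in L-1-OL-1. The 3 libraries of 86-1 at 17 DAF lay above all others, and within L-1-OL-1 seeds at 17 DAF replicate 1 lay apart, while replicates 2 and 3 fell among the values at 27 DAF. The group means were 20.4 ± 2.34 FPKM in 86-1 and 15.7 ± 2.12 FPKM in L-1-OL-1 seeds at 27 DAF, and 61.7 ± 4.70 FPKM in 86-1 and 26.8 ± 17.0 FPKM in L-1-OL-1 seeds at 17 DAF (SD, n = 3 each). Replicates 2 and 3 of the last group averaged 17.0 FPKM. Relative to the other genes of its library, gene1045 exceeded 90.8% to 92.9% of genes in 86-1 and 86.0% to 88.5% in L-1-OL-1 seeds at 27 DAF. At 17 DAF it exceeded 96.2% to 97.7% of genes in 86-1 and 84.7% to 96.7% in L-1-OL-1.

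**Figure D1:**
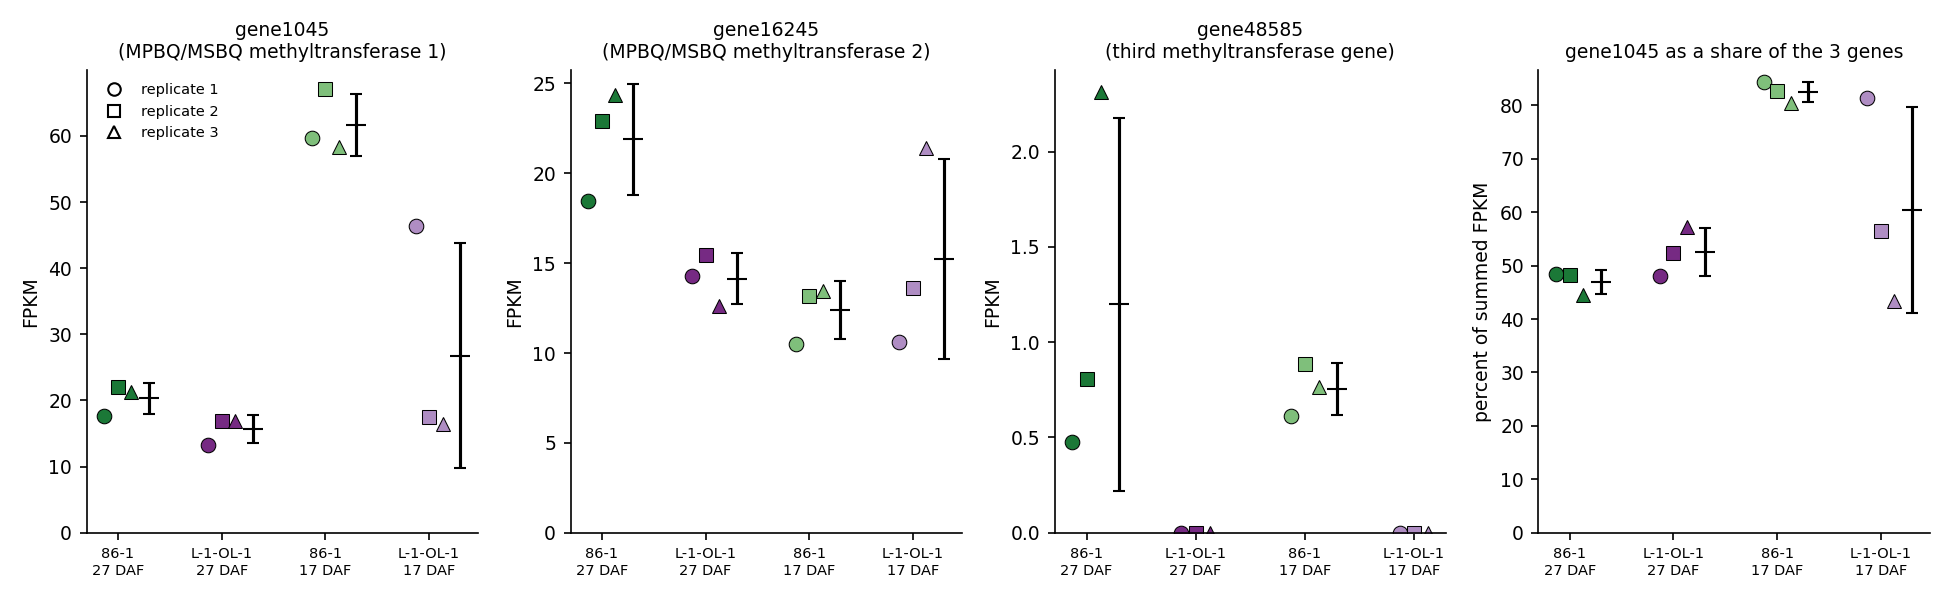
FPKM of the 3 methyltransferase genes, and gene1045 as a percent of their summed FPKM, in 86-1 and L-1-OL-1 seeds at 27 and 17 DAF. Symbols are libraries, bars are mean ± SD (n = 3), and no bar is drawn where all libraries are listed at 0. The 3 libraries of 86-1 at 17 DAF have 58.3 to 67.1 FPKM of gene1045, against 13.3 to 46.4 FPKM in the other 9.

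The first question was whether the cultivars differ at a given stage. At 17 DAF gene1045 was higher in 86-1, by 1.33 ± 0.34 on the log2(FPKM + 1) scale (SE, 95% interval 0.59 to 2.07, limma adjusted p = 0.0115), and the groups did not overlap. In this comparison 27% of the 30020 tested genes were called in either direction with 15.6% higher and 11.4% lower in 86-1. The call depended on which L-1-OL-1 libraries were used. Without replicate 1 the difference was 1.80 (adjusted p = 6.73e-05), and without replicate 2 it was 1.12 (adjusted p = 0.0599), which did not pass. Against replicate 1 alone the difference was 0.40. Fitted to those 6 libraries only, the difference of 1.33 had an adjusted p of 0.0765. At 27 DAF the difference was 0.36 ± 0.34 (95% interval -0.38 to 1.09, adjusted p = 0.412), which did not pass the test, although every 86-1 library lay above every L-1-OL-1 library. There, 48.3% of tested genes were called, 21.2% as higher in 86-1 and 27.1% as lower.

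The second question was whether the gene changed between stages. In 86-1 it fell by 1.56 ± 0.34 log2 units at 27 DAF relative to 17 DAF (95% interval -2.30 to -0.82, limma adjusted p = 0.00798), in the absence of overlap between the libraries of the stages. There, 18.8% of tested genes were called, 4.62% as higher and 14.1% as lower. The median over all tested genes was itself -0.20 in this comparison. With median-of-ratios scaling that median was -0.02 and the difference of gene1045 was -1.29 (adjusted p = 0.0525), and with quantile normalization it was -1.20 (adjusted p = 0.0674), so the call did not hold under either. In L-1-OL-1 the stage difference was -0.58 ± 0.34 (95% interval -1.32 to 0.16, adjusted p = 0.184) with overlapping libraries, against 42.6% of tested genes called (20.4% higher, 22.3% lower). It was -0.12 without replicate 1 of 17 DAF, and -1.51 against replicate 1 alone.

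Whether the stage difference itself differed between cultivars was tested directly. The difference of the stage differences, 86-1 minus L-1-OL-1, was -0.98 ± 0.48 (95% interval -2.02 to 0.07, limma adjusted p = 0.163), and 22.1% of tested genes were called, 8.5% as positive and 13.6% as negative. Without L-1-OL-1 17 DAF replicate 1 it was -1.44 (adjusted p = 0.00466), and with that replicate alone in its group it was -0.05. In the order of mean levels, L-1-OL-1 at 17 DAF and 86-1 at 27 DAF are neighbours, and their libraries overlapped (86-1 at 27 DAF minus L-1-OL-1 at 17 DAF -0.23 ± 0.34, adjusted p = 0.687, 19.9% of tested genes called, 7.65% higher and 12.2% lower). The widest contrast, L-1-OL-1 at 27 DAF minus 86-1 at 17 DAF, was -1.91 ± 0.34 (adjusted p = 0.000397, 60.8% of tested genes called, 27.8% higher and 33.1% lower), and it passed in all 22 alternative analyses. An exact permutation test of 3 against 3 libraries cannot go below p = 0.1 (2-sided), which all contrasts of gene1045 without overlap reached.

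**Figure D2:**
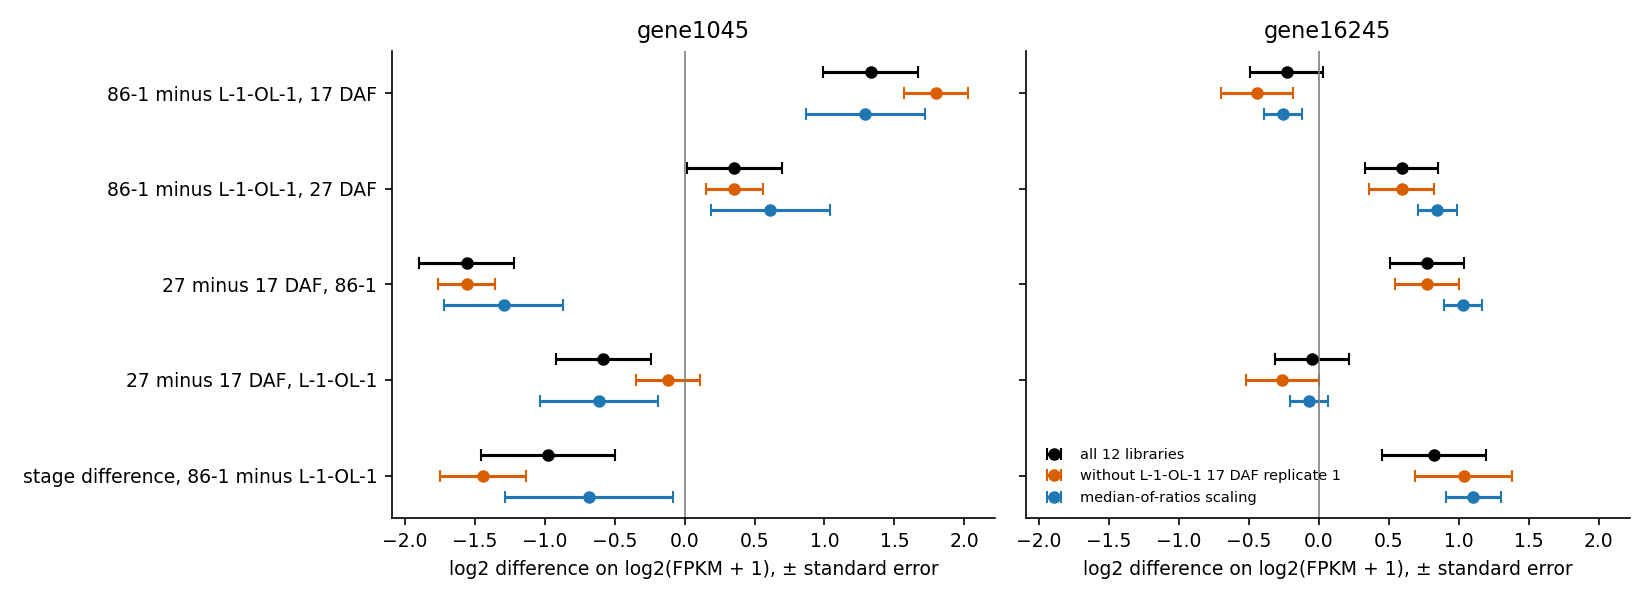
Differences of gene1045 (left) and gene16245 (right) on the log2(FPKM + 1) scale with SE, for all 12 libraries, without L-1-OL-1 17 DAF replicate 1, and after median-of-ratios scaling. For gene1045 the cultivar difference at 17 DAF is 1.33 with all libraries and 1.80 without that replicate.

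Of the other methyltransferase genes, gene16245 (MPBQ/MSBQ methyltransferase 2, identical to its best match over 343 of 343 positions) had a different pattern. It had 18.4, 22.9 and 24.3 FPKM in 86-1 and 14.3, 15.5 and 12.6 FPKM in L-1-OL-1 seeds at 27 DAF. Seeds at 17 DAF had 10.5, 13.2 and 13.4 FPKM in 86-1 and 10.6, 13.6 and 21.4 FPKM in L-1-OL-1. In 86-1 its libraries at 27 DAF lay above those at 17 DAF, the reverse of gene1045, but the difference of 0.77 ± 0.26 log2 units had a limma adjusted p of 0.0601. That p was 0.000784 with median-of-ratios scaling and 0.000502 with quantile normalization. At 27 DAF its cultivar difference of 0.59 ± 0.26 had an adjusted p of 0.0819, and 0.000373 and 0.000175 under those scalings. The third, gene48585, annotated as a putative methyltransferase of the same substrate, was too low to be tested. It had 0.477, 0.808 and 2.31 FPKM in 86-1 at 27 DAF and 0.615, 0.886 and 0.763 FPKM in 86-1 at 17 DAF. It was listed at 0 in all 6 L-1-OL-1 libraries.

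gene1045 therefore made up a changing share of the summed FPKM of these 3 genes. The share was 47.0% ± 2.22 in 86-1 and 52.5% ± 4.58 in L-1-OL-1 seeds at 27 DAF (SD, n = 3 each). Its share at 17 DAF was 82.5% ± 1.94 in 86-1 and L-1-OL-1 seeds had 81.3%, 56.4% and 43.4%. In 86-1 the share differed by -35.5 percentage points at 27 relative to 17 DAF, without overlap (exact permutation p = 0.1, the smallest possible). Between cultivars the libraries overlapped at 27 DAF (exact p = 0.3) and at 17 DAF (exact p = 0.2). The genes have similar descriptions, but their sequences were not compared. The sources used here do not say how any shared reads were divided.

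Genes of the LEA class (late embryogenesis abundant), whose proteins accumulate as seeds dry, had a low summed share in the libraries where gene1045 was high. The 91 LEA and dehydrin genes, of which 66 were tested, made up 2.29% to 4.20% of summed FPKM in 86-1 and 5.21% to 7.50% in L-1-OL-1 seeds at 27 DAF. At 17 DAF they made up 0.356% to 0.569% in 86-1 and 0.546% to 4.14% in L-1-OL-1. The 4 libraries with a LEA share of 0.356% to 0.569%, which are the 3 of 86-1 at 17 DAF and L-1-OL-1 17 DAF replicate 1, had 46.4 to 67.1 FPKM of gene1045. The 8 libraries with a share of 1.52% to 7.50% had 13.3 to 22.1 FPKM. Single LEA genes were split in direction. At 27 relative to 17 DAF in 86-1, 25 were called higher and 6 lower (4.62% and 14.1% of all tested genes). In L-1-OL-1, 18 were higher and 25 lower (20.4% and 22.3%). Between cultivars at 17 DAF, 8 were higher and 18 lower in 86-1 (15.6% and 11.4%). These counts are from all 12 libraries. The part of seed maturity in the differences of gene1045 was not tested. Seed storage protein genes ordered the libraries differently: their share was 10.6% to 34.7% in 86-1 and 0.902% to 2.79% in L-1-OL-1 seeds at 27 DAF, and 9.54% to 32.0% in 86-1 and 1.05% to 31.9% in L-1-OL-1 seeds at 17 DAF. The 2 genes of the endosperm and seed coat list were too low to be tested in either cultivar. They made up at most 8.33e-05% of summed FPKM in 86-1 libraries and were listed at 0 in all L-1-OL-1 libraries.

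**Figure D3:**
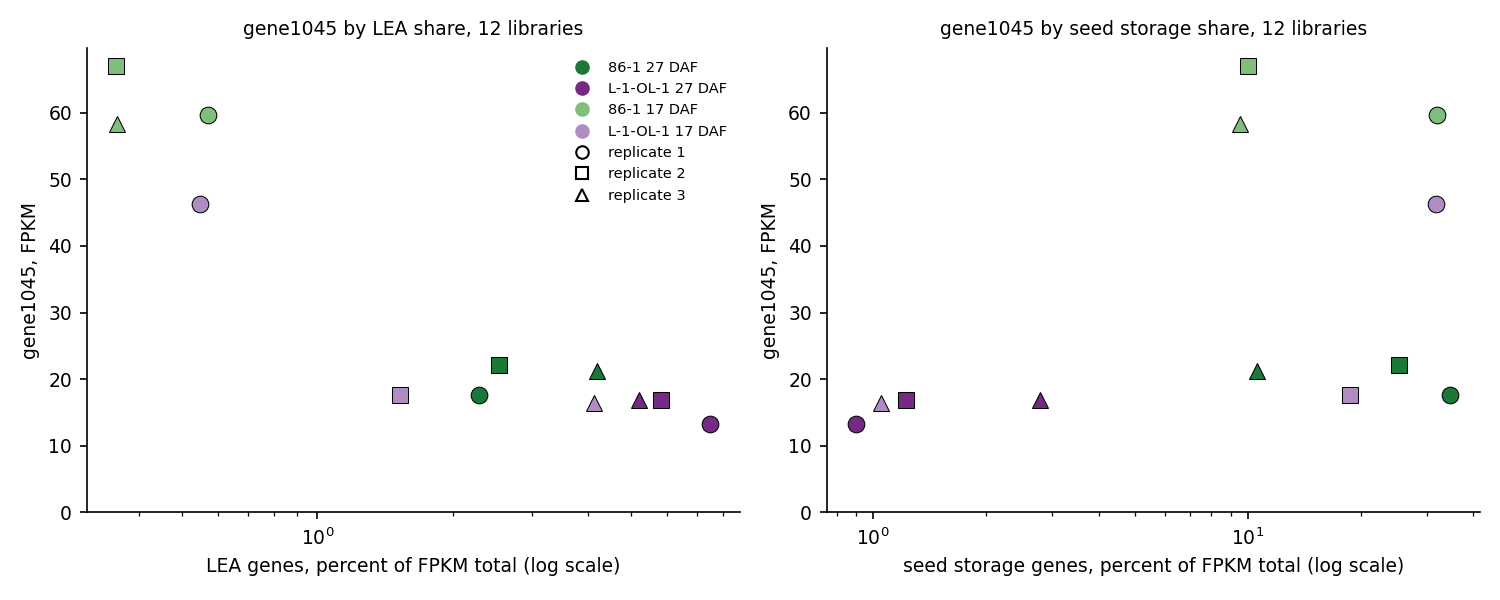
FPKM of gene1045 against the percent of summed FPKM in LEA genes (left) and seed storage genes (right), both on log axes, for the 12 libraries. The 4 libraries with the lowest LEA share have 46.4 to 67.1 FPKM of gene1045, and the 8 others have 13.3 to 22.1 FPKM.

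The core of the tocopherol pathway held 9 genes, of which 8 were tested, gene1045 among them. At 17 DAF 2 were called higher and 2 lower in 86-1 (median -0.21, against 0.0047 over all tested genes, of which 27% were called). At 27 DAF 2 were higher and 0 lower in 86-1 (median 0.64, against -0.12 and 48.3% called). At 27 relative to 17 DAF, 1 was higher and 2 were lower in 86-1 (median 0.42, against -0.20 and 18.8% called). In L-1-OL-1, 0 were higher and 2 lower (median -0.57, against -0.0013 and 42.6% called). After median-of-ratios scaling 5 of 8 were called between stages in 86-1, against 21.6% of tested genes, and 6 of 8 between cultivars at 27 DAF, against 56.6%.

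Upstream of the methyltransferase, hydroxyphenylpyruvate (HPP) dioxygenase makes homogentisate. The more abundant of its genes, gene64141, averaged 94.97 ± 4.39 FPKM in 86-1 and 81.1 ± 42.1 FPKM in L-1-OL-1 seeds at 27 DAF, and 51.6 ± 3.02 FPKM in 86-1 and 114 ± 34.0 FPKM in L-1-OL-1 seeds at 17 DAF. At 17 DAF it was lower in 86-1, opposite in direction to gene1045 (-1.09 ± 0.35, limma adjusted p = 0.0349), a call that was lost in 11 of 22 alternative analyses. Without L-1-OL-1 17 DAF replicate 1 the difference was -1.31 (adjusted p = 0.0101). The other, gene7829, had 5.42, 4.97 and 9.31 FPKM in 86-1 and 0.274, 0.735 and 0.322 FPKM in L-1-OL-1 seeds at 27 DAF, and at most 1.13 FPKM in either cultivar at 17 DAF. Its libraries of 86-1 at 27 DAF stood above all others. It was higher in 86-1 at 27 DAF (2.36 ± 0.31, adjusted p = 5.15e-05) and rose in 86-1 at 27 relative to 17 DAF (2.46 ± 0.31, adjusted p = 0.000357).

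Homogentisate phytyltransferase joins homogentisate to the phytyl chain, the first committed step of tocopherol synthesis, and its 2 genes differed in pattern. gene43991 had 1.33, 2.35 and 1.62 FPKM in 86-1 and 0.372, 1.09 and 0.700 FPKM in L-1-OL-1 seeds at 27 DAF. Values at 17 DAF were 6.24, 11.9 and 9.996 FPKM in 86-1 and 5.23, 3.06 and 2.49 FPKM in L-1-OL-1. Like gene1045 it was highest in 86-1 at 17 DAF. It was higher in 86-1 at that stage (1.18 ± 0.30, limma adjusted p = 0.0118), and it fell at 27 relative to 17 DAF in 86-1 (-1.88 ± 0.30, adjusted p = 0.00161) and in L-1-OL-1 (-1.39 ± 0.30, adjusted p = 0.00338). Without L-1-OL-1 17 DAF replicate 1 the cultivar difference was 1.42 (adjusted p = 0.00227) and the stage difference in L-1-OL-1 was -1.15 (adjusted p = 0.009). The cultivar call was kept in 17 of 21 alternatives. It was lost with a pseudocount of 0.01 (adjusted p = 0.0507), with only the groups compared (0.0642) and without 86-1 17 DAF replicate 2 (0.0604). Against L-1-OL-1 17 DAF replicate 1 alone, which is among these alternatives, the log2 difference was 0.69.

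gene50785 had 3.95, 5.96 and 5.63 FPKM in 86-1 and 2.39, 0.462 and 0.287 FPKM in L-1-OL-1 seeds at 27 DAF. Values at 17 DAF were 1.88, 1.99 and 2.47 FPKM in 86-1 and 4.07, 11.7 and 12.6 FPKM in L-1-OL-1. It was thus higher in 86-1 at 27 DAF (1.72 ± 0.42, limma adjusted p = 0.00494) and lower in 86-1 at 17 DAF (-1.62 ± 0.42, adjusted p = 0.0126), and it fell between stages in L-1-OL-1 (-2.36 ± 0.42, adjusted p = 0.00102). Without L-1-OL-1 17 DAF replicate 1 the difference at 17 DAF was -2.08 (adjusted p = 0.000687) and the stage difference in L-1-OL-1 was -2.82 (adjusted p = 0.000111). The call at 17 DAF was lost with a pseudocount of 0.01 (adjusted p = 0.0584) and without L-1-OL-1 17 DAF replicate 2 (0.0589) or replicate 3 (0.0533). Against replicate 1 alone the log2 difference was -0.71. gene56570, a putative homogentisate prenyltransferase, had group means between 0.641 and 3.49 FPKM and passed none of the tests between cultivars within a stage or between stages within a cultivar. It did pass in 7 of 21 alternatives between cultivars at 27 DAF, such as median-of-ratios scaling (0.82, adjusted p = 0.00634), in 6 of 21 between stages in L-1-OL-1, in 2 of 21 between cultivars at 17 DAF and in 1 of 21 between stages in 86-1.

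**Figure D4:**
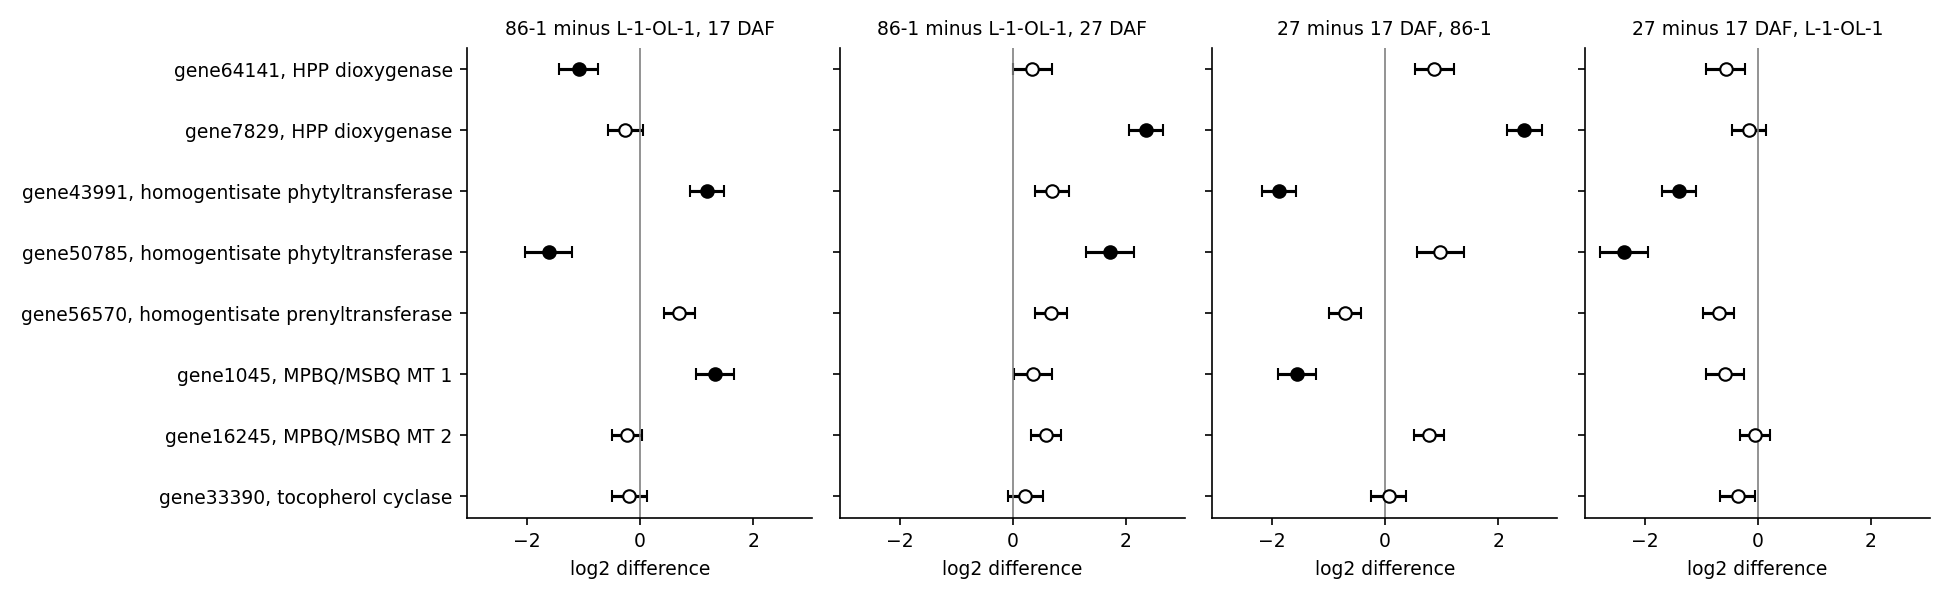
Log2 differences (± SE, on log2(FPKM + 1)) of the 8 tested tocopherol core genes in 4 comparisons, in the order of the pathway; filled points passed an adjusted p of 0.05. MT stands for methyltransferase, and gene1045 is filled for the cultivars at 17 DAF (1.33) and for the stages in 86-1 (-1.56).

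Downstream of the methyltransferase, tocopherol cyclase closes the ring of the tocopherol head. Its gene, gene33390, averaged 17.1 ± 5.72 FPKM in 86-1 and 14.1 ± 1.09 FPKM in L-1-OL-1 seeds at 27 DAF. The 17 DAF means were 15.9 ± 2.15 FPKM in 86-1 and 19.2 ± 7.92 FPKM in L-1-OL-1, and it passed none of these tests. Between cultivars at 27 DAF it passed under median-of-ratios (0.47, limma adjusted p = 0.0252) and quantile (0.53, adjusted p = 0.013) scaling, as did its difference of the stage differences (0.70, adjusted p = 0.0365, and 0.68, adjusted p = 0.0339). Gamma-tocopherol methyltransferase makes alpha- from gamma-tocopherol. Its 5 annotated genes were found after the descriptions had been seen. Of these, 4 ranged from 6.85 to 27.2 FPKM over the 12 libraries and passed none of these tests. They share a best match, so reads may be split between them. Between cultivars at 27 DAF gene30688 passed under median-of-ratios (0.74, limma adjusted p = 0.025) and quantile (0.82, adjusted p = 0.0201) scaling, and when low genes were not filtered out (0.49, adjusted p = 0.0497). gene30689 passed there under the same scalings (0.65, adjusted p = 0.0467, and 0.70, adjusted p = 0.0412), and at 17 DAF without that filter (0.59, adjusted p = 0.0465). The fifth, Helianthus_annuus_newGene_28947, had a short best match (37 identical of 52 aligned positions). It was listed at 0 in 86-1 at 27 DAF and had 2.57, 3.48 and 3.09 FPKM in L-1-OL-1 seeds at 27 DAF. At 17 DAF it had 0, 0 and 0.463 FPKM in 86-1 and 1.38, 0.862 and 1.68 FPKM in L-1-OL-1, and was lower in 86-1 (-1.01 ± 0.20, limma adjusted p = 0.00295), a call that held when L-1-OL-1 17 DAF replicate 1 was left out.

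Lists of other pathways, only some of which feed the methyltransferase or share its substrates, were compared between cultivars at 27 DAF. There gene1045 did not pass and 48.3% of tested genes did. Of 11 tested genes of phytol and chlorophyll metabolism, 6 were higher in 86-1 and 0 lower. Among them Helianthus_annuus_newGene_26673, a putative pheophorbide a oxygenase of chlorophyll breakdown, averaged 41.4 FPKM in 86-1 and 0.0269 FPKM in L-1-OL-1 (5.33 ± 0.30, limma adjusted p = 2.26e-07). gene22843, a putative pheophytinase, which releases phytol from chlorophyll's breakdown product, averaged 11.7 FPKM in 86-1 and 3.67 FPKM in L-1-OL-1 (1.44 ± 0.43, adjusted p = 0.0152). That call was lost without 86-1 27 DAF replicate 3 (adjusted p = 0.0538) and without L-1-OL-1 27 DAF replicate 3 (adjusted p = 0.0611). gene49109, of the pheophorbide a oxygenase family, averaged 12.8 FPKM in 86-1 and 4.32 FPKM in L-1-OL-1 (1.39 ± 0.34, adjusted p = 0.00477). Of 39 genes of the shikimate and tyrosine list, 12 were higher and 6 lower, and between stages in 86-1 1 was higher and 12 were lower at 27 DAF, where 4.62% of all tested genes were higher and 14.1% lower. gene597, a putative arogenate dehydratase of phenylalanine synthesis, averaged 4.85 FPKM in 86-1 and 0.183 FPKM in L-1-OL-1 seeds at 27 DAF (2.19 ± 0.47, adjusted p = 0.00231). Lower in 86-1 were Helianthus_annuus_newGene_14658, matching a DAHP synthase (phospho-2-dehydro-3-deoxyheptonate aldolase) of the first shikimate step, with 0.130 FPKM in 86-1 and 5.88 FPKM in L-1-OL-1 (-2.48 ± 0.46, adjusted p = 0.000874), and gene29556. That gene, a putative aminodeoxychorismate synthase of folate synthesis, averaged 2.75 FPKM in 86-1 and 16.3 FPKM in L-1-OL-1 (-2.22 ± 0.27, adjusted p = 3.15e-05).

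Of 23 plastid isoprenoid precursor genes, 4 were higher and 5 lower in 86-1 at 27 DAF. Over all tested genes 21.2% were higher and 27.1% lower there, shares to be set beside each list below. The 3 called isoprenoid genes with the largest differences, named next, were all higher in 86-1. gene53470, a putative geranylgeranyl pyrophosphate synthase, whose product is the precursor of the phytyl chain, averaged 21.7 FPKM in 86-1 and 4.88 FPKM in L-1-OL-1 (1.96 ± 0.27, limma adjusted p = 7.35e-05). gene4786, a putative synthase of the plastid isoprenoid route, averaged 13.4 FPKM in 86-1 and 0.729 FPKM in L-1-OL-1 (3.19 ± 0.60, adjusted p = 0.000949). gene11458, a putative deoxyxylulose phosphate synthase, its entry enzyme, averaged 23.8 FPKM in 86-1 and 7.10 FPKM in L-1-OL-1 (2.06 ± 0.74, adjusted p = 0.0373), a call lost in 7 of 22 alternatives. Of 4 genes of plastoquinone synthesis and homogentisate breakdown, 0 were higher and 1 was lower. That gene, gene52861, a putative solanesyl diphosphate synthase, which makes the side chain of plastoquinone, averaged 0.975 FPKM in 86-1 and 2.98 FPKM in L-1-OL-1 (-0.99 ± 0.32, adjusted p = 0.0219). That call held in 9 of 12 fits that left out a library (adjusted p up to 0.0874). Of 14 carotenoid genes 3 were higher and 3 lower, of 11 plastoglobule genes 1 was higher and 3 lower, of 14 ascorbate-glutathione genes 5 were higher and 2 lower, and of 3 quinone methyltransferase genes 1 was higher. gene16746, a putative zeaxanthin epoxidase of carotenoid synthesis, averaged 20.3 FPKM in 86-1 and 0.254 FPKM in L-1-OL-1 (4.06 ± 0.26, adjusted p = 3.66e-07). Of the lycopene cyclase genes, which shape the carotenoid rings, gene43737 was lower in 86-1, with 0.524 FPKM in 86-1 and 5.16 FPKM in L-1-OL-1 (-1.98 ± 0.26, adjusted p = 6.04e-05). gene56541 was higher, with 10.3 FPKM in 86-1 and 2.22 FPKM in L-1-OL-1 (1.82 ± 0.40, adjusted p = 0.00271). The plastoglobule genes gene58642 and gene61742, of the fibrillin family, were lower in 86-1 (-1.45 ± 0.51, adjusted p = 0.0324, and -1.43 ± 0.47, adjusted p = 0.0247), calls that each held in 8 of 12 fits that left out a library, and Helianthus_annuus_newGene_4041 was higher (0.95 ± 0.25, adjusted p = 0.00689). gene52064, a putative ubiquinone O-methyltransferase, averaged 11.3 FPKM in 86-1 and was listed at 0 in L-1-OL-1. Of the ascorbate-glutathione genes, gene31005, a putative dehydroascorbate reductase, averaged 18.6 FPKM in 86-1 and 5.63 FPKM in L-1-OL-1 (1.54 ± 0.39, adjusted p = 0.00642). The ascorbate peroxidase gene Helianthus_annuus_newGene_4688 averaged 2.73 FPKM in 86-1 and was listed at 0 in L-1-OL-1, and Helianthus_annuus_newGene_12238, which matched a cytosolic ascorbate peroxidase at only 32 of 78 positions, was listed at 0 in 86-1 and averaged 3.44 FPKM in L-1-OL-1.

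Genes with a profile like that of gene1045 were ranked by Pearson's r over the 12 libraries on log2(FPKM + 1). Ranked were 11140 genes with a mean of at least 10 FPKM in their highest group and a description that names a protein. Genes without such a description were not ranked. The 12 points share groups, so r is a description, and 511 genes reached 0.9 while 162 lay at or below -0.9. The most alike were gene59700, a putative sodium/sulfate symporter (r = 0.989), gene68466, a putative RNA polymerase beta subunit (0.988), gene31806, a putative nagB/RpiA/CoA transferase-like protein (0.987), gene26784, a putative rhamnogalacturonate lyase (0.986), and Helianthus_annuus_newGene_21730, a putative gibberellin regulated protein (0.983). gene59700 had 5.81, 7.33 and 5.67 FPKM in 86-1 and 2.60, 3.57 and 3.61 FPKM in L-1-OL-1 seeds at 27 DAF. Younger seeds, at 17 DAF, had 34.7, 35.4 and 31.7 FPKM in 86-1 and 23.1, 5.54 and 5.43 FPKM in L-1-OL-1, with replicate 1 of that group apart as for gene1045. The least alike were gene17089, a LEA protein (r = -0.982), gene55914, a putative dehydrin (-0.972), and gene56498, a putative poly [ADP-ribose] polymerase 3 (-0.968). By Spearman's rank correlation only 1 of the 5 most alike genes stayed in the first 5. For gene17089, gene55914 and gene56498 it was -0.909, -0.783 and -0.902. Their r after median-of-ratios scaling was -0.878, -0.912 and -0.902. The names of gene17089 and gene55914 rest on matches identical at 124 of 217 and 36 of 59 positions.

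**Figure D5:**
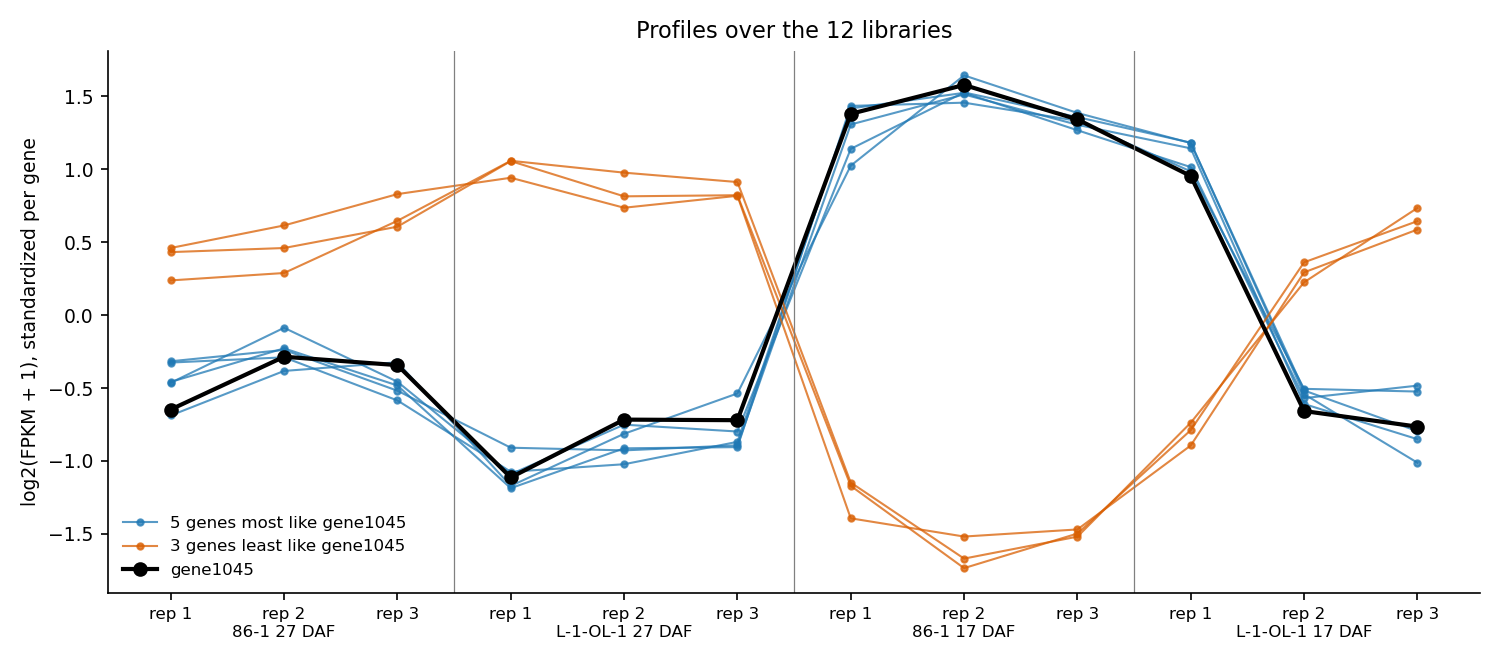
log2(FPKM + 1) of gene1045, its 5 most alike and 3 least alike genes, standardized per gene, over the 12 libraries. All 6 upper profiles peak in 86-1 at 17 DAF and stand high in L-1-OL-1 17 DAF replicate 1, the library with 46.4 FPKM of gene1045, and the 3 least alike genes mirror them.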

How the data were processed

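RNA from 12 seed libraries was sequenced on an Illumina NovaSeq, per the labels' protocols. Expression values were deposited by the authors as FPKM; the submitters' processing notes name DESeq2 1.4.5, RSEM 1.2.12, HISAT2 2.0.4 and Bowtie2 2.2.5, without roles. The sources used here give neither genome build nor annotation. The gene identifiers linked to 0 entries of the RefSeq gene table, so no coordinates or sequences are given. A second deposited table lists each gene's best protein match with a match score, used only for descriptions and identities; it holds 65535 entries, so it may be incomplete, and 45957 of 48882 genes had a description.

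Each value column was matched to a library by name, with 0 columns left unmatched. FPKM are not counts, so limma 3.58.1 in R 4.3.3 was fitted to log2(FPKM + 1) of all 12 libraries, with a mean per group, a mean-variance trend and the 30020 genes that reached 1 FPKM in 3 or more libraries. The pseudocount of 1 understates the changes of low genes. P-values are 2-sided, adjusted over these genes (Benjamini-Hochberg) and called under 0.05. The fit was tested on simulated data. No log2 difference within a stage or cultivar is given against a group listed at 0. Lists were defined by words in the descriptions. Genes named are all tocopherol core genes, called genes with large differences between cultivars at 27 DAF in the other lists, and the genes most and least like gene1045. The gene and the lists were chosen with earlier results of these data known. Alternatives were other pseudocounts, filters and scalings, no trend, only the groups compared, a replicate block, leaving out each library, and, chosen after seeing the data, L-1-OL-1 17 DAF replicate 1 as its group's only library.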

Additional observations from a re-analysis of the deposited data

Results flagged for a closer look

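For gene1045 the difference of the stage differences did not pass the test. Of the 8 tested tocopherol core genes 2 passed it, and of the 5 gamma-tocopherol methyltransferase type genes 1 did. Over all tested genes 22.1% were called, 8.5% as positive and 13.6% as negative. For gene50785, a putative homogentisate phytyltransferase, the stage difference in 86-1 exceeded that in L-1-OL-1 by 3.34 ± 0.59 log2 units (limma adjusted p = 0.00273). For gene7829, a putative HPP dioxygenase, it did so by 2.62 ± 0.43 (adjusted p = 0.00183). Both passed in all 12 fits that left out a library. For Helianthus_annuus_newGene_28947, which had only a short match to gamma-tocopherol methyltransferase, the value was -1.005 ± 0.29 (adjusted p = 0.0284). One of its groups is listed at 0, so the size depends on the pseudocount, and it passed in 6 of 12 fits that left out a library (adjusted p 0.0200 to 0.0810).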

How the results depend on the processing

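For gene1045 the contrasts between cultivars at 27 DAF (0.25 to 0.68) and between L-1-OL-1 at 27 DAF and 86-1 at 17 DAF (-1.98 to -1.80) kept their direction and side of the threshold in all 22 alternatives. The cultivar difference at 17 DAF (1.33) ranged from 1.08 to 1.80 when a library was left out, and lost its call without L-1-OL-1 17 DAF replicate 2 (1.12, limma adjusted p = 0.0599) and in the fit of only the groups compared (1.33, adjusted p = 0.0765). Values with L-1-OL-1 17 DAF replicate 1 as its group's only library assume that this lone library varies like the other groups, and are read as descriptions; that difference was 0.40. The stage difference in 86-1 lost its call under median-of-ratios (-1.29) and quantile (-1.20) scaling, and ranged from -1.62 to -1.46 when a library was left out. The stage difference in L-1-OL-1 was -1.51 with that replicate alone and ranged from -0.84 to -0.12 when a library was left out. The difference of the stage differences ranged from -1.44 to -0.72 when a library was left out, passing the test without that replicate. The contrast of 86-1 at 27 DAF and L-1-OL-1 at 17 DAF reversed under median-of-ratios (0.0003) and quantile (0.14) scaling, ranged from -0.48 to 0.24 when a library was left out, and was -1.16 with that replicate alone.

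Counts of called genes fell with a filter on mean FPKM of at least 5, which tests fewer genes: 2300 against 8111 for cultivars at 17 DAF, 7003 against 14485 at 27 DAF, 2820 against 5633 for stages in 86-1, 7112 against 12799 for stages in L-1-OL-1, 3632 against 6634 for the difference of the stage differences, 1587 against 5973 for 86-1 at 27 DAF and L-1-OL-1 at 17 DAF, and 8708 against 18259 for L-1-OL-1 at 27 DAF and 86-1 at 17 DAF. At 17 DAF the count was 5137 with only the groups compared and 3768 with that replicate alone, and 5448 to 12295 when a library was left out. For stages in 86-1 it was 2747 to 7576 when a library was left out. For the difference of the stage differences it was 10073 with quantile normalization and 4025 to 9406 when a library was left out. The share of calls that were higher was 24.6% between stages in 86-1, 45.1% with median-of-ratios scaling and 51.1% with quantile normalization. It was 47.8% between stages in L-1-OL-1 and 59.6% with quantile normalization, and 38.5% for the difference of the stage differences and 48.8% with median-of-ratios scaling.

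Of the 8 tested core genes, the count called at 17 DAF (4) was 2 with a pseudocount of 0.01 and 1 with the filter at 5 FPKM. It was 1 with only the groups compared and 1 to 4 when a library was left out. At 27 DAF (2) it was 4 with pseudocounts of 0.1 and 0.01, 0 with the filter, 6 with median-of-ratios scaling, 4 with quantile normalization, 5 with only the groups compared and 2 to 4 when a library was left out. Between stages in 86-1 (3) it was 1 with the filter, 5 with either scaling, 6 with only the groups compared and 3 to 5 when a library was left out. Between stages in L-1-OL-1 (2) it was 0 with the filter. For the difference of the stage differences (2) it was 0 with the filter, 5 with either scaling and 2 to 5 when a library was left out. The shares of all tested genes called also rose with median-of-ratios and quantile scaling. They were 56.6% and 54.3% at 27 DAF (48.3% without), and 21.6% and 22.2% between stages in 86-1 (18.8% without). For the difference of the stage differences they were 32.6% and 33.6% (22.1% without). Shares under the other settings are not given, so those core counts are not read as a result about the list. The filter at a mean of 5 FPKM left gene43991, gene50785, gene56570 and gene7829 untested, so its counts are of fewer core genes. The cause of the remaining changes was not tested.

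None of the values that changed sign had passed the test or did so after the change (limma). With L-1-OL-1 17 DAF replicate 1 as its group's only library, gene16245 was 0.19 between cultivars at 17 DAF and 0.37 between stages in L-1-OL-1, gene33390 was 0.33, 0.17 and -0.11 for these and the difference of the stage differences, gene7829 was 0.060 between stages in L-1-OL-1, and gene56570 was 0.17 for the difference of the stage differences. The gamma-tocopherol methyltransferase type genes gene30688 and Helianthus_annuus_newGene_10412 were -0.029 and -0.095 between cultivars at 17 DAF, and Helianthus_annuus_newGene_10411 was 0.091 for the difference of the stage differences. gene7829 was 0.33 between stages in L-1-OL-1 with quantile normalization. gene56570 was 0.27 with a pseudocount of 0.1, 0.34 with 0.01 and 0.17 with median-of-ratios scaling for the difference of the stage differences. Under median-of-ratios and quantile scaling, gene30688 was 0.25 and 0.28 and Helianthus_annuus_newGene_10412 was 0.12 and 0.14 between stages in 86-1, while gene30689 was 0.093 and 0.070 and Helianthus_annuus_newGene_10411 was 0.10 and 0.083 for the difference of the stage differences. When a library was left out, gene16245 ranged from -0.44 to 0.030 between cultivars at 17 DAF and from -0.26 to 0.21 between stages in L-1-OL-1. gene33390 ranged from -0.46 to 0.0999 between cultivars at 17 DAF, from -0.0082 to 0.45 at 27 DAF and from -0.17 to 0.29 between stages in 86-1. gene56570 ranged from -0.32 to 0.21 for the difference of the stage differences, and Helianthus_annuus_newGene_28947 from -0.27 to 0 between stages in 86-1. Between stages in 86-1 gene30688 ranged from -0.095 to 0.066 and gene30689 from -0.038 to 0.15. Between stages in L-1-OL-1 Helianthus_annuus_newGene_10411 ranged from -0.38 to 0.0115 and Helianthus_annuus_newGene_10412 from -0.31 to 0.0117, and for the difference of the stage differences they ranged from -0.33 to 0.060 and from -0.14 to 0.18.

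The replicate numbers did not pair the libraries: of 18 pairs of same-numbered libraries 4 correlated above 0.1. In 7 of these 18 comparisons the same number gave the highest correlation. With the replicate block, gene1045 was 1.33 at 17 DAF (limma adjusted p = 0.0201) and -1.56 between stages in 86-1 (adjusted p = 0.0154).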

Other observations

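Genes described as holding a cellular retinaldehyde binding/alpha-tocopherol transport domain, a lipid-binding fold of many proteins, were listed after the descriptions had been seen. Of 8 such genes 7 were tested, and between cultivars at 27 DAF 3 were higher and 1 lower in 86-1, where 21.2% of all tested genes were higher and 27.1% lower. gene5137 averaged 119 ± 36.5 FPKM in 86-1 and 43.5 ± 21.0 FPKM in L-1-OL-1 seeds at 27 DAF (1.503 ± 0.46, limma adjusted p = 0.0171), a call lost without 86-1 27 DAF replicate 3 (adjusted p = 0.0627) and without L-1-OL-1 27 DAF replicate 3 (adjusted p = 0.0833). gene75248 averaged 6.10 ± 1.74 FPKM in 86-1 and 0.631 ± 0.396 FPKM in L-1-OL-1 seeds at 27 DAF (2.12 ± 0.34, adjusted p = 0.000284). gene59835 averaged 14.9 ± 2.72 FPKM in 86-1 and 5.91 ± 1.48 FPKM in L-1-OL-1 seeds at 27 DAF (1.21 ± 0.23, adjusted p = 0.00091). Helianthus_annuus_newGene_14941 was listed at 0 in 86-1 and averaged 1.51 ± 0.308 FPKM in L-1-OL-1 at that stage.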
